A study of Mus musculus with 14 samples.

Results

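NF-kB is a family of transcription factors, and its subunits, inhibitors and feedback regulators were followed here in germinal centre B cells of mice with different numbers of floxed Crebbp alleles. The members were 10 genes, taken as every probe set of the array annotated to one of them alone. This gave 16 of the 45101 probe sets, covering 9 of the 10 genes and 9 of the 18193 named genes on the array, and Nfkb1 was not analysed here. RNA of B220+CD95+PNA+ cells, sorted from the spleens of individual C57BL/6x129Sv mice, was measured on 14 whole-genome Affymetrix mouse arrays, 1 per mouse. All groups carried Cg1-Cre, a recombinase expressed from the locus of the immunoglobulin gamma 1 constant region and therefore active in activated B cells. KO mice were Crebbpfl/fl (n = 5, 3 males), HET mice Crebbpfl/+ (n = 5, 2 males) and WT mice Crebbp+/+ (n = 4, 1 male), all 8 to 12 weeks old. Sheep red blood cells were given on day 0 and again on day 5 to raise germinal centres, and spleens were taken on day 12. The sort has no marker of recombination, so cells that kept a floxed allele may be present.

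The family acts in a pair of arms. In the canonical arm, receptors of the B cell switch on a kinase complex that destroys inhibitory IkB proteins, which releases dimers of RelA or c-Rel. In the non-canonical arm, CD40 and the BAFF receptor stabilise a kinase that leads to processing of the Nfkb2 product, whose short form pairs with RelB. In germinal centres these signals act mostly in the light zone, the area of selection by T cells. CREBBP, the CREB-binding protein, is a lysine acetyltransferase that serves as a coactivator for many transcription factors, RelA among them. Many genes of the family are themselves NF-kB targets and form feedback loops.

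Promoter letters are shown for the members as a description, and their part in the changes in KO mice was not tested. RefSeq windows of GRCm38.p6, from 250 bases before to 50 after a start site, were at hand for 7 member genes in 12 windows. The 3 members without a window were Nfkb1, Relb and Map3k8. The kappaB consensus, searched by its degenerate 10-base form on both strands, matched in 6 of the 7 genes, against 9.55% of 27025 genes and 8.46% of 32851 windows. Matches on the 2 strands can overlap, since the motif is nearly its own complement. Rela had no match in its window. The CREB site TGACGTCA, also read on both strands, was in the windows of 1 member gene, Nfkbid, against 2.03% of genes. Many genes of the family are known NF-kB targets, so the choice of members favours kappaB matches, and their share is no finding of these data. A match is a description of letters and not a measured site. The match nearest the start upstream of it is given for each gene, with the motif in capitals and the strand of the gene:
Nfkb2, chr19:46304716-46304745, plus strand: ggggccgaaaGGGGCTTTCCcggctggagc
Nfkbia, chr12:55492657-55492686, minus strand: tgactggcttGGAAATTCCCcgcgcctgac
Nfkbie, chr17:45555584-45555613, plus strand: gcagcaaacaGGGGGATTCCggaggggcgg
Nfkbid, chr7:30422215-30422244, plus strand: gggccgaacaGGAATTCCCCgtgcgcgggg
Tnfaip3, chr10:19015403-19015432, minus strand: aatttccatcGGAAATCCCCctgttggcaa
Rel, chr11:23771041-23771070, minus strand: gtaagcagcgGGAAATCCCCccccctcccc
Nfkbid, CREB site, chr7:30422344-30422373, plus strand: cgttagcgccgTGACGTCAgcgcgcggcgt

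Values are log2 intensities after RMA, so a difference of 1 is a doubling, and levels of different probe sets cannot be set against each other. Each gene is represented by its brightest probe set, and changes are limma estimates with sex as a covariate, adjusted by Benjamini-Hochberg over the 10225 genes above the median level of 6.43. All 9 measured member genes were above that level, at means from 7.76 for Map3k8 to 12.82 for Nfkbia. All 10 measured germinal centre B cell markers were above it too, though Cd79a, Ms4a1 and Ptprc among them are not particular to that stage. Fas, the gene of CD95, was at 12.18 in KO, 12.33 in HET and 12.36 in WT mice. Of these 10 markers 8 had a negative change in KO against WT and 1 was called, Rgs13, a regulator of G protein signalling, at -0.62 (SE 0.12, limma adjusted p = 0.0180). Of the markers of other cells, 2 of 6 for T cells, 3 of 7 for macrophages and neutrophils, 3 of 5 for dendritic cells, and 0 of 3 for NK cells, 0 of 2 for red cells and 0 of 4 for stroma were above it as means over all arrays. NK cell markers differed widely between arrays, with a mean level from 4.09 to 7.29 in KO, 4.10 to 6.53 in HET and 4.10 to 7.19 in WT mice. Among them Gzma, a granzyme of cytotoxic cells, was at 9.40 in KO 1 and at most 4.20 in the other KO mice. It was at 6.29, 8.40, 4.20, 3.82 and 3.93 in HET mice, and at 7.88, 8.41, 9.45 and 3.95 in WT mice. Single macrophage and neutrophil markers also differed widely between arrays. Lyz2 ran from 6.41 to 9.91 in KO, 6.48 to 10.32 in HET and 6.52 to 9.71 in WT mice. S100a9 ran from 6.84 to 9.72 in KO, 6.76 to 10.26 in HET and 6.86 to 10.01 in WT mice. All 4 plasma cell markers were above the median level, with a mean from 9.82 to 10.12 in KO, 9.81 to 10.16 in HET and 9.83 to 9.99 in WT mice. Of these Sdc1, the gene of CD138, rose in KO against WT by 0.81 (SE 0.19, limma adjusted p = 0.0404), while the other 3 had negative changes and were not called. The part of these cells in the members' values was not tested. Crebbp, on its brightest probe set, changed by -0.41 in KO against WT (SE 0.09, limma adjusted p = 0.0372). KO 3 stood somewhat apart, with a median correlation to the other arrays of 0.979, against 0.984 to 0.990 for the other 13. For Map3k8, Nfkb2, Relb and the difference of the arms, results are also given without KO 3.

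In KO mice, Map3k8 was the only member that fell past the threshold, while the other 8 measured members had negative changes that did not pass. The 9 changes had a median of -0.35 and ran from -0.67 to -0.08, where the median over all tested genes was -0.0027 and 51% of them were negative. Of the 10225 genes 2.44% were called in KO against WT and 1.26% were called lower, and against that background 1 of 9 members was called. An unadjusted p under 0.05 was found for 7 of 9 members, all lower, and for 13.1% of all genes, 6.94% with a lower value. The members share arrays and signals, and were chosen with results of these data known, so these shares are a description. In bulk RNA, fewer cells of a kind and less RNA per cell cannot be told apart.

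**Figure D1:**
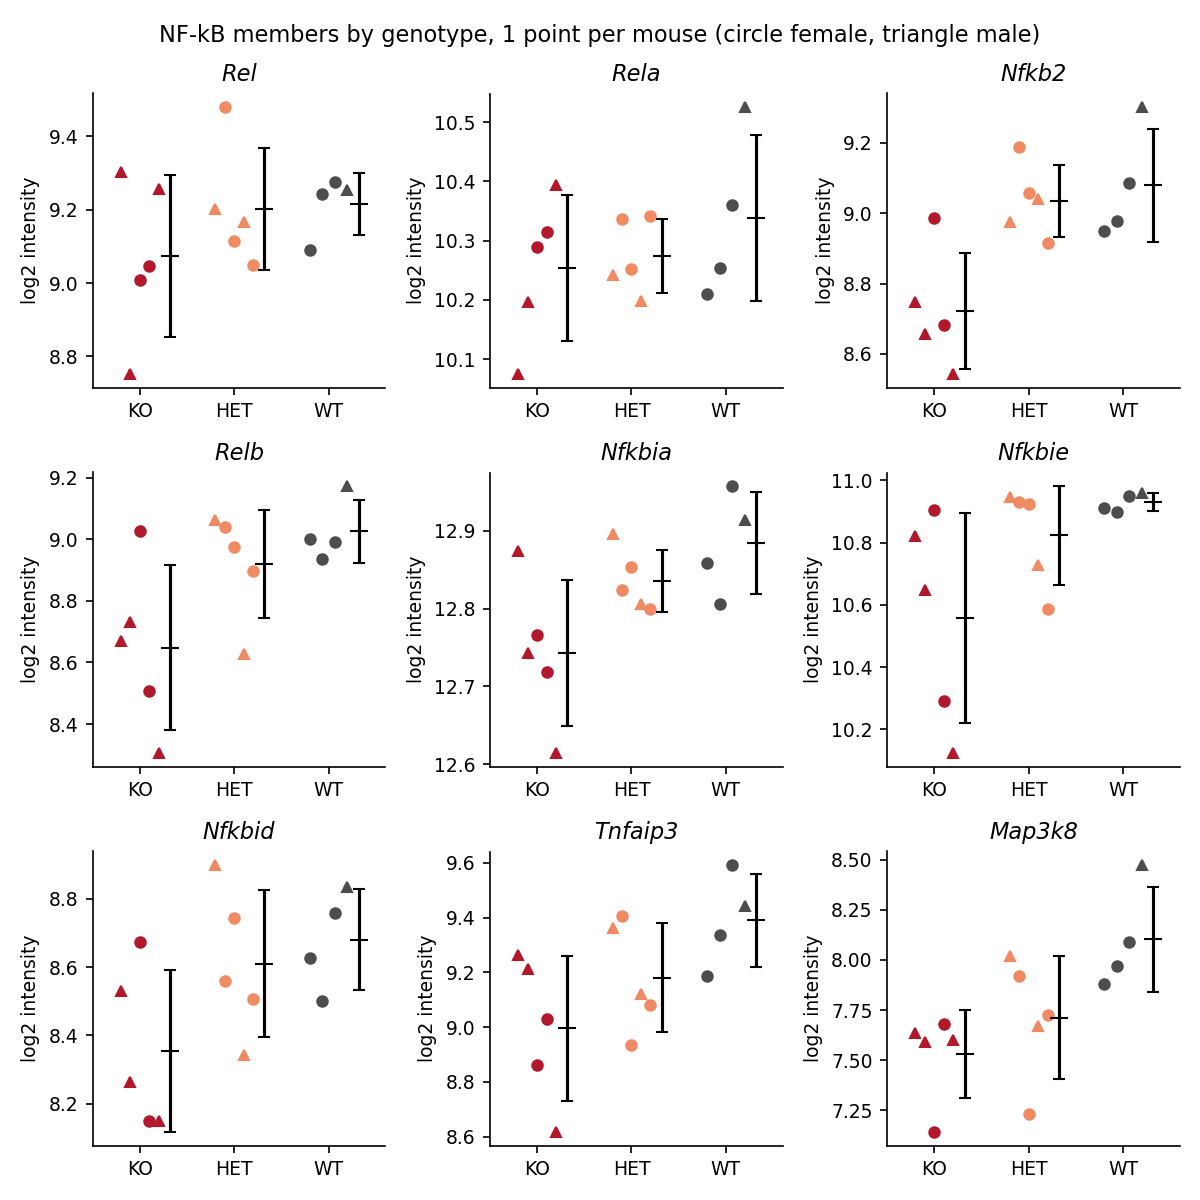
Log2 intensity of the 9 measured member genes (1 panel each, y axes differ and do not start at 0) in KO, HET and WT mice. Each point is 1 mouse (circles female, triangles male), and the black mark with its bar is the mean with its SD. The 5 KO points of Map3k8 lie below its 4 WT points, while the other panels overlap.

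The kinase gene Map3k8 encodes TPL2, which is held by the Nfkb1 product and, once released, activates the ERK pathway. Its log2 intensity was 7.64, 7.59, 7.14, 7.68 and 7.60 in KO mice, 8.02, 7.92, 7.23, 7.67 and 7.72 in HET mice, and 7.88, 7.97, 8.09 and 8.47 in WT mice. All 5 KO arrays were below all 4 WT arrays, a separation found in 6.51% of all tested genes and in 3.65% with KO the lower group, while the HET arrays overlapped with both groups. KO 3 and HET 3 were the lowest, and WT 4, the only male WT mouse, was the highest. The change in KO against WT was -0.67 (SE 0.15), which leaves 62.8% of the WT intensity (limma adjusted p = 0.0311). The trend over 0, 1 and 2 floxed alleles was -0.33 per allele (SE 0.07, limma adjusted p = 0.0237). The Map3k8 call in KO against WT was lost without WT 2, WT 3, WT 4, KO 2 or KO 3, with changes from -0.69 to -0.58 and limma adjusted p from 0.0595 to 0.143. The trend call was lost without WT 3, WT 4 or KO 3, with slopes from -0.32 to -0.28 and limma adjusted p from 0.0628 to 0.109. Without both KO 3 and WT 4 the change was -0.43 (limma adjusted p = 0.298), and without the sex covariate it was -0.57 (limma adjusted p = 0.0730). Among females alone it was -0.57 (limma adjusted p = 0.302).

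The tested genes whose values ran most like those of Map3k8 over the 14 arrays were Dock2, an activator of the GTPase Rac in lymphocytes, Lyst, a regulator of lysosomal traffic, and Junb, a subunit of AP-1. Their Pearson correlations with Map3k8 were 0.91, 0.89 and 0.89, and after removal of the group means 0.86, 0.84 and 0.81. These 14 points share the normalisation, and the 3 genes were the highest of 10225, so the values only describe likeness.

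The non-canonical subunits had changes of equal size in KO mice, and neither passed. Nfkb2 encodes the precursor of the short subunit that pairs with RelB. Its values were 8.75, 8.66, 8.99, 8.68 and 8.54 in KO mice, 8.98, 9.19, 9.06, 9.04 and 8.91 in HET mice, and 8.95, 8.98, 9.09 and 9.30 in WT mice. All KO arrays but KO 3 were below the lowest HET and WT arrays. The change was -0.35 (SE 0.10, limma adjusted p = 0.102) in KO against WT and -0.31 (SE 0.09, limma adjusted p = 0.379) in KO against HET. Without KO 3 the change against WT was -0.45 and passed (limma adjusted p = 0.0260). A dimmer Nfkb2 probe set, which by the suffix of its identifier may also bind other sequences, had a change of -0.11 (SE 0.12, limma adjusted p = 0.880 over 22518 probe sets), so the probe sets of this gene differ in size of change.

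Relb encodes the RelB subunit. Its values were 8.67, 8.73, 9.03, 8.51 and 8.31 in KO mice, 9.06, 9.04, 8.97, 8.63 and 8.90 in HET mice, and 9.00, 8.94, 8.99 and 9.17 in WT mice. KO 3 lay among the WT arrays, and the other 4 KO arrays were below them. The change in KO against WT was -0.35 (SE 0.13, limma adjusted p = 0.252), and it was -0.48 without KO 3 (limma adjusted p = 0.0632).

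The canonical subunits overlapped between KO and WT mice. Rel, encoding c-Rel, the subunit most tied to B cell growth, was at 9.30, 8.75, 9.01, 9.05 and 9.26 in KO mice, 9.20, 9.48, 9.11, 9.17 and 9.05 in HET mice, and 9.09, 9.24, 9.28 and 9.25 in WT mice. KO 1 was above every WT array and KO 2 below every other array. Its change was -0.15 (SE 0.12, limma adjusted p = 0.691). Rela, encoding RelA, was at 10.07, 10.20, 10.29, 10.32 and 10.39 in KO mice, 10.24, 10.34, 10.25, 10.20 and 10.34 in HET mice, and 10.21, 10.25, 10.36 and 10.53 in WT mice. Its change was -0.08 (SE 0.08, limma adjusted p = 0.803), and its sign turned without WT 4, to 0.030. KO 1 had the lowest value and WT 4 the highest.

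**Figure D2:**
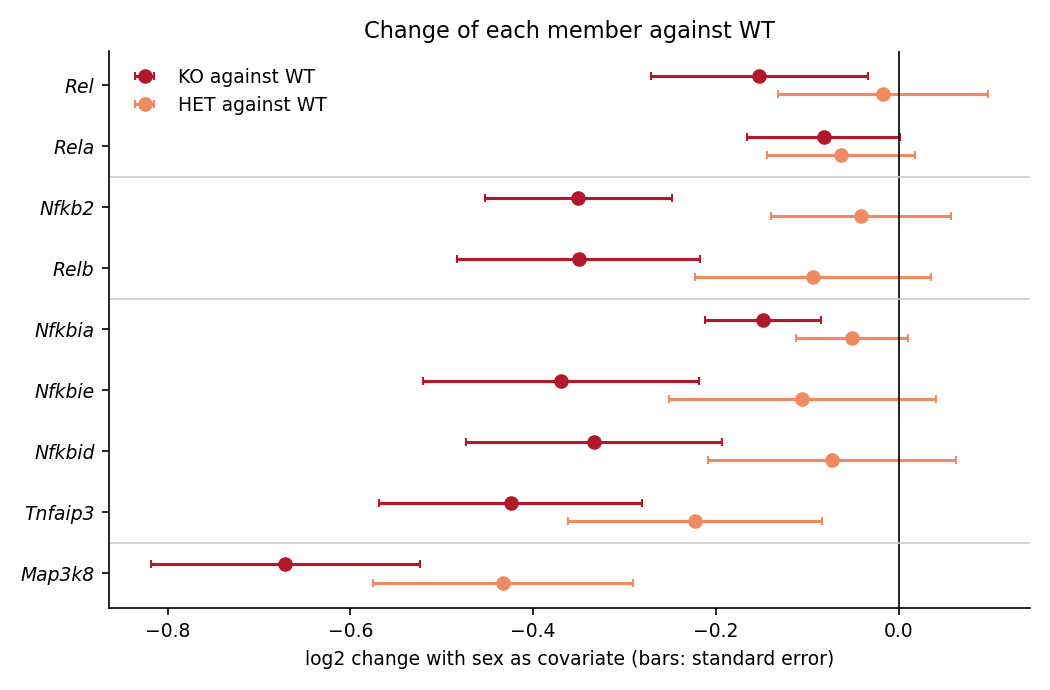
Log2 change of each member in KO (red) and HET (orange) against WT mice, with sex as a covariate, and the standard error as bars. Lines separate canonical subunits, non-canonical subunits, inhibitors and the kinase. All 18 estimates are negative, from -0.67 for Map3k8 in KO to -0.02 for Rel in HET.

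Set beside each other on their brightest probe sets, the non-canonical subunits lay further below WT in KO mice than the canonical ones. As the mean deviation of its genes from their WT means, the non-canonical arm (Nfkb2, Relb) was at -0.34, -0.36, -0.05, -0.46 and -0.63 in KO 1 to KO 5. The canonical arm (Rel, Rela) was at -0.09, -0.30, -0.13, -0.10 and 0.05 in the same mice. The non-canonical arm was the lower one in 4 of 5 KO mice, and the difference was near 0 in KO 2 at -0.05. Its mean was -0.25 ± 0.29 (SD, n = 5), with KO 5 furthest apart at -0.68 and KO 3 the other way at 0.08. In HET mice the same difference was -0.04 ± 0.07 (SD, n = 5), and in WT mice, around a mean of 0 by construction, the SD was 0.07 (n = 4). Without KO 5 the KO mean was -0.15 and without KO 3 it was -0.34. The difference between the arms was not tested, each arm holds 2 genes, and sex is not a covariate in these deviations. It also rests on the choice of Nfkb2 probe set. The brightest changed by -0.35 in KO against WT, but the dimmer one by -0.11, near Rel at -0.15.

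**Figure D3:**
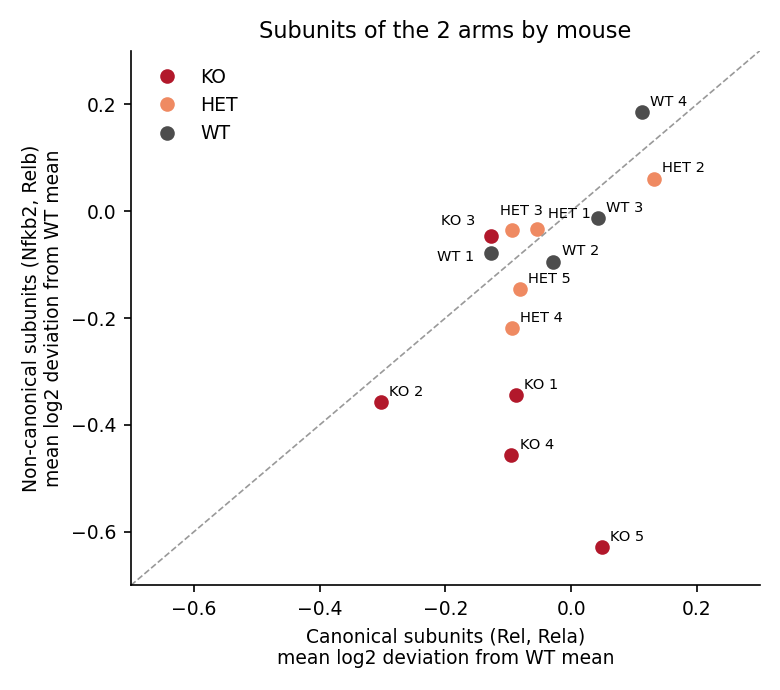
Mean log2 deviation from the WT mean of the non-canonical subunits (y axis) against the canonical subunits (x axis), 1 point per mouse, with a dashed line where they are equal. KO 1, KO 4 and KO 5 lie well below the line and KO 2 just below it, while KO 3 lies above it, among the HET and WT mice.

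The inhibitors and feedback regulators all had negative changes in KO mice and none passed. Nfkbia encodes IkB alpha, the inhibitor first destroyed and first remade in a canonical response. On its brightest probe set it was at 12.87, 12.74, 12.77, 12.72 and 12.61 in KO mice, 12.90, 12.82, 12.85, 12.81 and 12.80 in HET mice, and 12.86, 12.81, 12.96 and 12.91 in WT mice. KO 1 lay among the WT arrays, and the other 4 KO arrays were below all of them. The change was -0.15 (SE 0.06, limma adjusted p = 0.330). The other 4 probe sets of Nfkbia had changes from -0.26 to -0.14, and none passed.

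Nfkbie encodes IkB epsilon, a slower inhibitor of c-Rel and RelA dimers. Its values were 10.82, 10.65, 10.91, 10.29 and 10.12 in KO mice, 10.94, 10.93, 10.92, 10.73 and 10.59 in HET mice, and 10.91, 10.90, 10.95 and 10.96 in WT mice. The WT arrays differed by little, at 10.93 ± 0.03 (SD, n = 4), against 10.56 ± 0.34 (SD, n = 5) for KO, and KO 4 and KO 5 were the lowest, followed by HET 5. The change in KO against WT was -0.37 (SE 0.15, limma adjusted p = 0.305). With 1 array left out, this Nfkbie change ranged from -0.50 to -0.26 and was never called. Its other probe set was at 10.60, 10.48, 10.72, 10.24 and 10.14 in KO mice, below all WT arrays at 10.75, 10.91, 10.88 and 10.88. Among all tested genes 3.65% had every KO array below every WT array. On this other probe set the change was -0.42 (SE 0.13, limma adjusted p = 0.183 over 22518 probe sets).

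Nfkbid encodes a nuclear IkB protein that is induced by antigen receptor signals and needed for some antibody responses in mice. Its values were 8.53, 8.26, 8.67, 8.15 and 8.15 in KO mice, 8.90, 8.56, 8.74, 8.34 and 8.51 in HET mice, and 8.63, 8.50, 8.76 and 8.83 in WT mice. KO 1 and KO 3 lay within the WT range and the other 3 KO arrays below it. The change was -0.33 (SE 0.14, limma adjusted p = 0.322). With 1 array left out, it ranged from -0.46 to -0.25 and was never called.

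Tnfaip3 encodes A20, a ubiquitin-editing enzyme that shuts off canonical signalling and is often lost in human B cell lymphomas. Its values were 9.26, 9.21, 8.86, 9.03 and 8.62 in KO mice, 9.36, 9.41, 8.93, 9.12 and 9.08 in HET mice, and 9.19, 9.34, 9.59 and 9.44 in WT mice. KO 5 was the lowest, followed by KO 3 and HET 3, and the groups overlapped. The change was -0.42 (SE 0.14, limma adjusted p = 0.174), the largest among the members after Map3k8. A second probe set lay below the level for testing, at 4.68 ± 0.15 in KO, 4.71 ± 0.22 in HET and 4.88 ± 0.16 in WT mice (SD, n = 5, 5 and 4).

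The order of the members differed from mouse to mouse. KO 4 and KO 5 were the KO arrays furthest below the WT mean, with medians over the 9 members of -0.40 and -0.53, and KO 3 the nearest, at -0.09. In KO 3, Nfkb2, Relb, Nfkbie and Nfkbid were at most 0.09 below the WT mean, but Tnfaip3 was at -0.53 and Map3k8 at -0.96. In HET 3, too, Map3k8 and Tnfaip3 were the lowest members, at -0.87 and -0.46, and those 4 genes lay between -0.05 and 0.06. In KO 5 the order differed, with Nfkbie at -0.81, Tnfaip3 at -0.77, Relb at -0.72 and Map3k8 at -0.50. This grouping of genes was seen in the values and has no test. The mean level of 6 genes that cell handling induces was also followed, as log2 intensity. It ran from 7.46 to 9.31 in KO, 7.21 to 8.73 in HET and 8.20 to 8.80 in WT mice. This mean was lowest in HET 3 and KO 2 and highest in KO 5, but not all of its genes moved together. Fos and Dusp1 were both high in WT 1 to WT 3, HET 1, HET 2 and KO 1, at 12.10 and 12.06 or more. In all other arrays they were at most 10.93 and 11.43. Jun was at 8.73 to 9.36 in those high arrays, at 9.32 in KO 5 and at most 7.86 elsewhere. Gzma was high in the same arrays, at 6.29 to 9.45, against at most 4.20 elsewhere. This split of the arrays was seen in the values and has no test. In KO 5, Hspa1b and Hspa1a were at their highest, 11.78 and 6.34. Fos and Dusp1 were at 10.93 and 11.43 there, below WT 1 to WT 3 but above WT 4. Mean Fos was 10.41 ± 1.29 (SD) in KO, 10.16 ± 2.01 in HET and 11.44 ± 1.56 in WT mice. Mean Hspa1b was 9.32 ± 1.54, 8.62 ± 0.97 and 8.68 ± 1.02 in the same groups (n = 5, 5 and 4). Markers of naive follicular B cells, of which 2 of 5 were measured, ran from 8.93 to 9.49 in KO, 8.85 to 9.72 in HET and 9.32 to 9.60 in WT mice. Of the 6 handling genes 4 were tested and 0 were called by limma, also with 0 at an unadjusted p under 0.05. The 4 tested had a median change of -0.65 in KO against WT, with 3 negative, and of -0.52 in HET against WT, with 4 negative. Of the naive markers Fcer2a, the gene of CD23, was at -0.36 in KO against WT (SE 0.16, limma adjusted p = 0.357) and Klf2 at -0.10 (SE 0.20). The part of either list in the members' values was not tested.

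**Figure D4:**
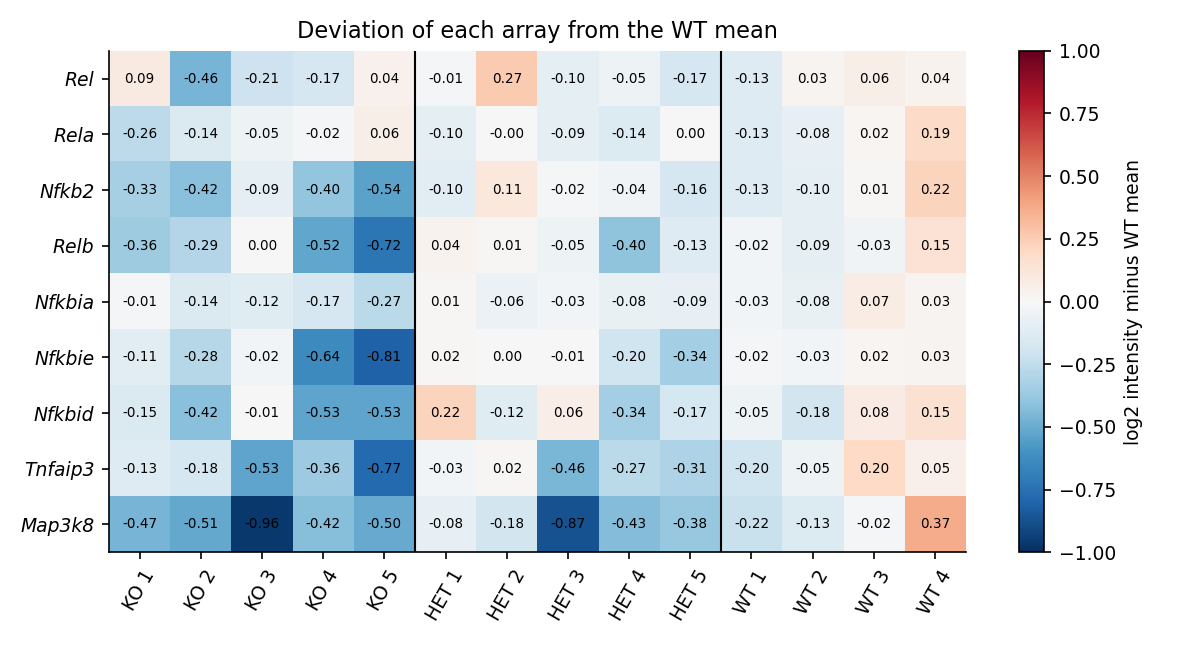
Log2 intensity of each member minus its WT mean, by array, with the value printed in each cell and blue for lower. Columns run over KO, HET and WT mice. Map3k8 is lowest in KO 3 (-0.96) and HET 3 (-0.87), while Nfkbie and Relb are lowest in KO 5 (-0.81 and -0.72).

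With 1 floxed allele, no member passed, and the estimates lay nearer to WT than to KO except for Map3k8, Rela and Tnfaip3. Limma called 0 of 9 members in HET against WT, with 1 at an unadjusted p under 0.05, and 0% of all genes, with 2.74% at that unadjusted p and 1.06% with a lower value. All 9 changes were negative, against 49.3% of all genes. That member was Map3k8, at -0.43 (SE 0.14, unadjusted p = 0.00925, limma adjusted p = 1.00), with all 5 HET arrays below the WT mean and 3 below the lowest WT array. Tnfaip3 differed by -0.22 (SE 0.14), Nfkbie by -0.11 (SE 0.15) and Relb by -0.09 (SE 0.13). Nfkbid was at -0.07 (SE 0.14), Rela at -0.06 (SE 0.08), Nfkbia at -0.05 (SE 0.06), Nfkb2 at -0.04 (SE 0.10) and Rel at -0.02 (SE 0.11). For Nfkb2, Rel, Rela and Relb the sign turned when WT 4 or another array was left out, so their HET direction is not settled.

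Between KO and HET mice, which differ in the second allele, Nfkb2 had the largest member change at -0.31 and the smallest unadjusted p, 0.00567. Limma called 0 of 9 members there, with 1 at an unadjusted p under 0.05, against 0.264% of all genes called (0.108% lower) and 6.39% at that unadjusted p (3.83% lower). All 9 changes were negative, against 52.7% of all genes. Nfkbie, Nfkbid and Relb differed by -0.26 each (SE 0.14, 0.13 and 0.12), Map3k8 by -0.24 (SE 0.14) and Tnfaip3 by -0.20 (SE 0.13). Rel was at -0.14, Nfkbia at -0.10 and Rela at -0.02. The mean of KO was below that of HET, and HET below WT, for 9 of 9 members, an order found in 29.1% of all tested genes. Both comparisons share the HET arrays, and the second Nfkb2 probe set breaks the order, at 8.43 in KO, 8.42 in HET and 8.56 in WT mice. In the allele trend 1 of 9 members was called, against 3.04% of all genes, and 7 had an unadjusted p under 0.05 with a lower value, against 7.51% of all. All 9 slopes were negative, against 50.8% of all genes, and Nfkb2 followed Map3k8 at -0.18 per allele (SE 0.05, limma adjusted p = 0.0969).

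Every probe set of a member was also tested on its own among the 22518 probe sets above the median level. All 15 that could be tested had negative changes in KO against WT, where 51% of the tested genes were negative. Several of these probe sets read the same gene, so they are not separate results. Limma called 0 of the 15, against 0.893% of all probe sets, with 10 at an unadjusted p under 0.05, all lower, against 9.85% of all in either direction. Map3k8 had a limma adjusted p = 0.0592 in KO against WT at the probe-set level, and 0.0467 in the allele trend, where it was called, as were 1.17% of all probe sets.

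Of the other genes of the pathway, 1 NF-kB target fell past the threshold in KO mice and no signalling component or regulator did. Among 22 tested targets 1 was called lower and 0 higher in KO against WT, with 16 negative changes, 9 of the 22 at an unadjusted p under 0.05 and a median of -0.15. Over all genes 1.26% were called lower, 51% were negative and 13.1% had such an unadjusted p. The called target was Ebi3, a secreted subunit of interleukin dimers, at 8.76, 8.56, 8.70, 8.80 and 8.29 in KO mice, 9.14, 9.25, 9.29, 8.93 and 9.23 in HET mice, and 9.35, 9.44, 9.18 and 9.24 in WT mice. All KO arrays of Ebi3 were below all WT arrays, as in 3.65% of all tested genes. It fell by 0.61 against WT (SE 0.09, limma adjusted p = 0.00419) and by 0.51 against HET (SE 0.09, limma adjusted p = 0.0453). In the allele trend 3 of the 22 targets were called, all lower, against 3.04% of all genes called in either direction. Ebi3 was at -0.31 per allele (SE 0.06, limma adjusted p = 0.00801). Plek, encoding pleckstrin, was at -0.11 per allele (SE 0.03, limma adjusted p = 0.0328). Slamf1, a receptor of lymphocytes, was at -0.15 per allele (SE 0.04, limma adjusted p = 0.0430).

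No gene was called in KO against WT among 17 tested genes of canonical signalling, 7 of non-canonical signalling, 3 other IkB genes and 9 other negative regulators. At an unadjusted p under 0.05 there were 2 of 17, 4 of 7, 1 of 3 and 2 of 9, against 13.1% of all genes. Of these 1, 3, 1 and 1 were lower, where 6.94% of all genes were. Canonical signalling genes had a median change of -0.04, with Tab3 at 0.16 and Traf6, a ubiquitin ligase of the canonical arm, at -0.20. Non-canonical signalling genes had a median of -0.11, with 5 negative and 2 positive. The largest change among them was that of Cd40, at -0.37 (SE 0.13, limma adjusted p = 0.191). They include Otud7b, a deubiquitinase that restrains this arm in mice, at 0.30 (SE 0.09, limma adjusted p = 0.104) and Birc3, a ubiquitin ligase, at -0.25 (SE 0.08, limma adjusted p = 0.141). Otud7b was at 10.93, 10.52, 10.74, 10.55 and 10.58 in KO mice, 10.51, 10.36, 10.45, 10.59 and 10.31 in HET mice, and 10.35, 10.26, 10.26 and 10.43 in WT mice. Every KO array was above every WT array, where 6.51% of all tested genes separated in either direction. Of the other IkB genes, Bcl3, a nuclear cofactor, was at -0.41 (SE 0.14, limma adjusted p = 0.195) and Nfkbiz at -0.27 (SE 0.21). Among the other negative regulators, Zc3h12a, an RNase that degrades inflammatory transcripts, was at -0.36 (SE 0.10, limma adjusted p = 0.0809) and Rnf11 at 0.25 (SE 0.10).

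**Figure D5:**
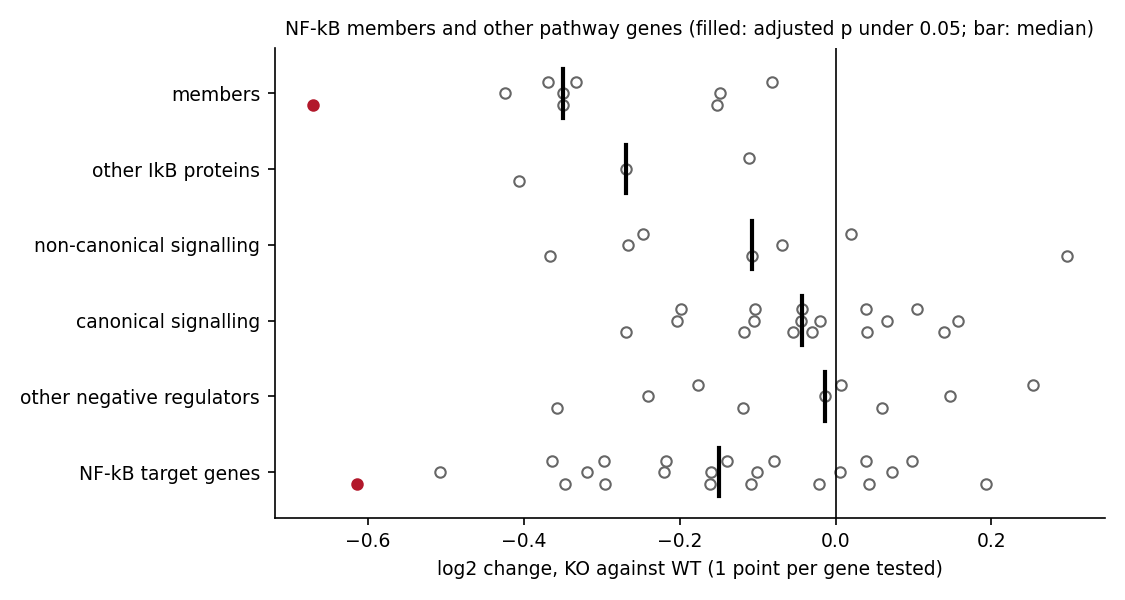
Log2 change in KO against WT mice of the 9 members and of the genes of 5 other pathway lists, 1 point per tested gene. Bars are medians and filled points passed the adjusted threshold. The median is -0.35 for the members, -0.15 for the targets and -0.04 for canonical signalling, and Map3k8 and Ebi3 are the filled points.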

How the data were processed

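The authors deposited RMA values, per the submitters' processing notes, as a log2 intensity for every probe set on each array. RMA forces arrays to a common distribution and compresses changes of dim probe sets. Names came from the platform annotation, with 1 gene for 34945 probe sets and several for 932, checked through gene identifiers against RefSeq (34741 matched, 0 symbols changed). Each gene was represented by its probe set with the highest mean, tested if its mean over all arrays exceeded the median level of probe sets other than controls. Limma 3.58.1 in R 4.3.3 was fitted to the 14 arrays together, with terms for genotype and sex (or the number of floxed alleles and sex), with Benjamini-Hochberg adjustment and a threshold of 0.05. The fit was tested on simulated data. Precision is limited by the number of arrays. Arrays shared at most 58 identical values. The members and gene lists were chosen with earlier results of these data known. Named genes were all members, Crebbp, pathway genes called in any comparison or with the 2 smallest p per list, and the 3 genes most like a called member. Cd40 was named in addition, for its size of change. Alternatives covered the filter, probe sets, scaling, sex, samples, limma options, replicate numbers, threshold and each array. Leaving out KO 3 and WT 4 together was added after seeing the data.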

Additional observations from a re-analysis of the deposited data

Results flagged for a closer look

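Map3k8 in KO 3 stood far below the other KO mice, at 7.14 against 7.59 for the next lowest. Without KO 3 the change of Map3k8 in KO against WT was -0.58 (limma adjusted p = 0.0766). It was the only such value among 48 groups of arrays checked over 16 probe sets, where chance gives about 1 in 20.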

How the results depend on the processing

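Counts of members called and of genes called moved with several settings, and the cause was not tested unless given. Map3k8 was not called in KO against WT (0 members) without the expression filter, above the upper quartile (where it is not tested), without the sex covariate, in females alone, with array weights, with the replicate block, or without KO 3 and WT 4 together. In the allele trend 0 members were called in the same settings, except that 1 stayed called without the filter. With repeated quantile normalisation, or at a threshold of 0.1, 2 members (Map3k8 and Nfkb2) were called in the trend. Above the upper quartile, which tests fewer genes, 117 genes were called in KO against WT, 4 in KO against HET and 151 in the trend. Females alone gave 79, 0 and 113, and leaving out KO 3 and WT 4 together gave 75, 13 and 85, both with fewer arrays. A threshold of 0.1 gave 424, 48 and 508. With only the groups compared, 98 genes were called in KO against WT and 5 in KO against HET. Array weights gave 6 in HET against WT, 72 in KO against HET and 198 in the trend. KO against HET also gave 44 with repeated quantile normalisation and 2 without the filter. The deviations of same-numbered arrays correlated above 0.1 in 9 of 13 pairs, from -0.17 to 0.38, and 8 of 14 arrays were closest to their own number, a hint of pairing from the data. Pairing was not taken as settled, since the labels give no shared litter or day and not every pair was above 0.1. With the replicate block 198 genes were called in KO against WT, 1 in HET against WT, 16 in KO against HET and 233 in the trend, and Map3k8 was at -0.64 in KO against WT (limma adjusted p = 0.0752).

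With 1 array left out, the genes called ranged from 130 to 259 in KO against WT, from 0 to 0 in HET against WT, from 0 to 25 in KO against HET and from 164 to 300 in the trend. Members called ranged from 0 to 1 in KO against WT and in the trend, and were 0 in the other comparisons. Without KO 3 the called member in KO against WT was Nfkb2 in place of Map3k8. Member probe sets called ranged from 0 to 1. The deviation of the non-canonical subunits from WT ranged from -0.45 to -0.30 in KO and from -0.11 to -0.01 in HET. That of the canonical subunits ranged from -0.16 to -0.07 in KO and from -0.081 to -0.00053 in HET, and the difference of the arms from -0.34 to -0.15 in KO and from -0.06 to -0.01 in HET.

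Signs turned for estimates near 0. In females alone Rela was at 0.028 in KO against WT and 0.015 in the trend, and in HET against WT Rel was at 0.012, Rela at 0.035 and Nfkb2 at 0.049. Array weights gave, in HET against WT, 0.034 for Rel, 0.021 for Rela, 0.040 for Nfkb2 and 0.028 for Nfkbid. Without KO 3 and WT 4 together, Rela was at 0.038 in KO against WT, 0.035 in HET against WT, 0.0030 in KO against HET and 0.018 in the trend, and Nfkb2 at 0.047 in HET against WT. With 1 array left out, Rela ranged from -0.12 to 0.030 in KO against WT (gene and probe set alike), from -0.11 to 0.033 in HET against WT, from -0.052 to 0.023 in KO against HET and from -0.057 to 0.013 in the trend. In HET against WT, Rel ranged from -0.10 to 0.025, Nfkb2 from -0.085 to 0.077 and Relb from -0.14 to 0.0088. Leaving out WT 4 turned Rela, Nfkb2 and Relb, leaving out WT 3, HET 3 or HET 5 turned Rel, and leaving out KO 1 turned Rela in KO against HET.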
